A study of Caenorhabditis elegans with 24 samples.

Results

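The netrin and Slit guidance genes described here are the receptors unc-5, unc-40 and sax-3 and the ligands unc-6, slt-1 and unc-129. They were chosen by name, as the rows of the count table whose WormBase symbol is one of these 6, which is 6 of 46778 gene IDs. The choice was made with earlier results of these data known. Each symbol matched 1 row, and all 6 passed the filter on low counts that left 16887 genes for testing. The study profiled polyadenylated RNA from wild-type Caenorhabditis elegans at late L3, early L4, late L4 and adulthood, L3 and L4 being the last larval stages. At each stage there were 3 libraries of Venus-positive cells, which the labels call distal tip cells (DTCs), and 3 of Venus-negative cells from the remaining worm tissue, called other cells below, which makes 8 groups and 24 libraries. All animals carried the Venus label in the DTC, which is a single leader cell at the end of each gonad arm. The labels do not name the promoter that drives Venus. They do not say how many animals gave each sample or whether the 3 samples of a group were separate cultures. The p-values therefore cover the spread among the samples sequenced, which may be technical.

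Netrin and Slit are secreted guidance cues that migrating cells and growth cones read through receptors on their surface. In C. elegans the netrin UNC-6 is made by ventral cells, UNC-40 (the DCC family receptor) mediates attraction to it, and UNC-5, usually together with UNC-40, mediates movement away from it. SLT-1 is the Slit ligand and SAX-3 its Robo receptor, and UNC-129 is a secreted TGF-beta family protein of dorsal body wall muscle that can bind UNC-5. The hermaphrodite DTC first moves along the ventral body wall away from the middle of the animal, then turns dorsally, which needs unc-6, unc-5 and unc-40, and then returns along the dorsal side.

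On the ce11 build, with gene models of Ensembl, unc-5 (WBGene00006745) lies on chromosome IV from 5495664 to 5528338 on the minus strand. The gene unc-40 (WBGene00006776) lies on chromosome I from 5679837 to 5691503 on the minus strand, and sax-3 (WBGene00004729) on X from 3451908 to 3465927 on the minus strand. Of the ligands, unc-6 (WBGene00006746) lies on X from 6889674 to 6897147 and slt-1 (WBGene00004854) on X from 14674328 to 14683324, both on the plus strand, and unc-129 (WBGene00006852) on IV from 9002839 to 9005410 on the minus strand. All 6 are protein coding, and no other single gene shares more than 0.667% of the exon bases of any of them (sax-3).

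Levels are CPM, counts per 1000000 counts of a library, scaled by the trimmed mean of M-values (TMM), printed for libraries 1, 2 and 3 of a group in that order. An error after a mean CPM is the SD over 3 libraries. Log2 fold changes are given ± an approximate standard error, the absolute value over the square root of F in the edgeR test. A gene was called where its adjusted p from edgeR, over all genes tested in a comparison, was under 0.05. Total counts ran from 8391423 to 18045720 per library. After TMM scaling, 3 counts stood for 0.117 CPM (other cells at early L4 replicate 2) to 0.551 CPM (adult DTC replicate 3). The DTC label was checked with lag-2, the Notch ligand of the germline stem cell niche, which averaged 201, 205, 270 and 50.3 CPM in DTCs at the 4 stages in turn and at most 1.26 CPM in any group of other cells. The migration factor hlh-12 averaged 358, 75.5, 3.61 and 3.46 CPM in DTCs at the same stages, against 0.240, 0.223, 1.52 and 2.22 CPM in other cells. Its ranges overlapped at late L4 (2.559 to 5.71 CPM in DTCs, 0.357 to 2.995 CPM in other cells). They also overlapped in adults (2.411 to 4.037 CPM and 0.298 to 4.752 CPM), so hlh-12 did not separate the fractions at these stages. The 7 DTC markers listed, all with counts in every group, summed to 19860 to 37530 CPM in larval DTC libraries and to 2234 to 3158 CPM in adult DTC libraries. In other cells they summed to 920.5 to 7414 CPM. Other cells at late L3 held 1 library that stood apart, replicate 3, with 714 CPM in 8 sperm markers against 4.51 and 7.17 CPM in replicates 1 and 2.

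**Figure D1:**
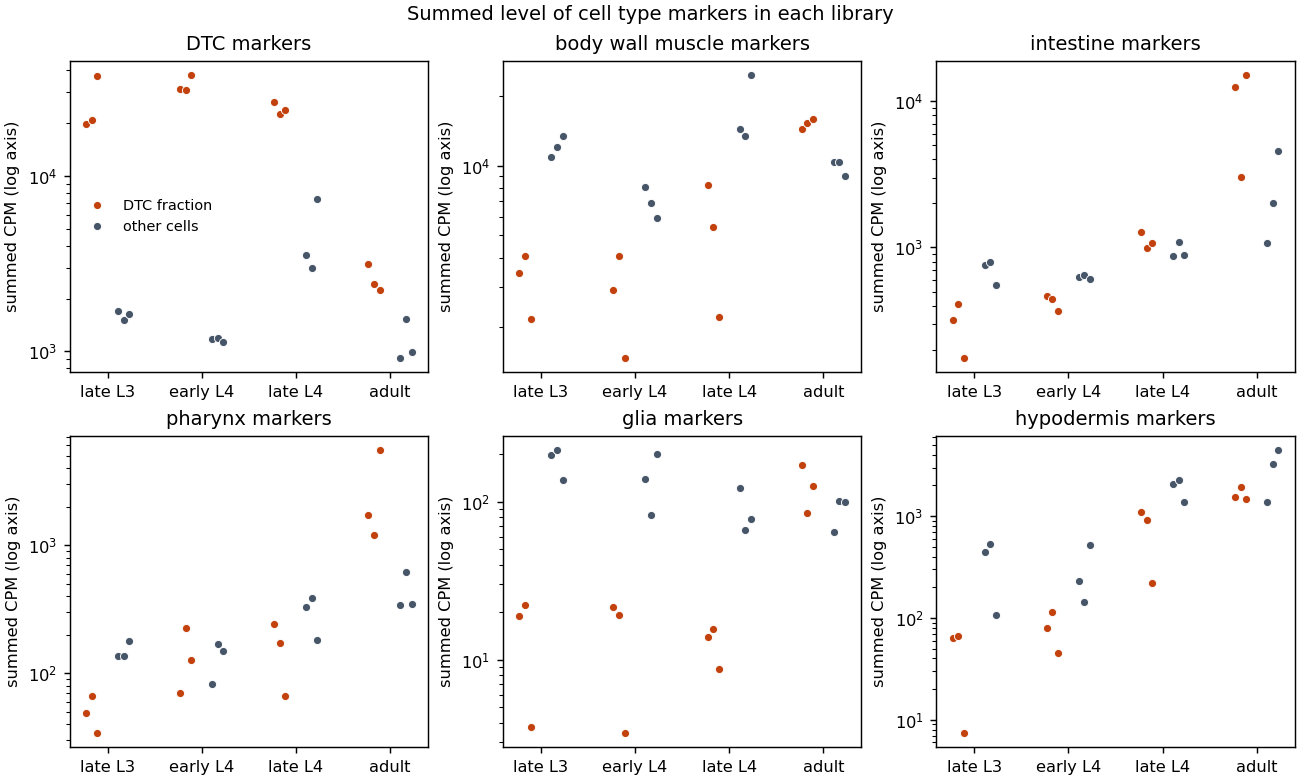
Summed CPM (log axis) of 6 lists of cell type markers in each of the 24 libraries by stage, with DTC libraries left of other cells; each point is 1 library. In adult DTC libraries the DTC markers sum to 2234 to 3158 CPM. Intestine, pharynx, muscle, glia and hypodermis markers are there at their highest of any DTC group.

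The comparison of DTCs with other cells asked which of the guidance genes the leader cell carried more or less of at each stage. The receptors were higher in DTCs at both L4 stages, with unc-5 higher at late L3 as well, and unc-6 was lower in the mean of the stages. At late L3, 1 of the 6 genes was called, unc-5, which was higher (of all genes 13.4% were called, 6.03% higher and 7.33% lower). At early L4 the 3 receptors were called higher (9.40% of all genes were called higher and 1.65% lower), and at late L4 the same 3 receptors were called higher (9.19% of all genes were higher and 2.61% lower). In adults edgeR called 0 of the 6, 0 had an unadjusted p under 0.05 and DESeq2 called 0, while 13.3% of all genes were called, 5.12% lower. In the mean of the 4 stages the 3 receptors were called higher (16.3% of all genes) and unc-6 was called lower (14.3% of all genes), where 30.6% of all genes were called in either direction. The median log2 fold change of the 6 genes in that mean was 0.05, against -0.14 over all genes tested. Scaling by relative log expression (RLE) moved the median of all genes to -0.33 and the share of calls that were higher to 40.1%, against 53.3% with TMM.

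**Figure D2:**
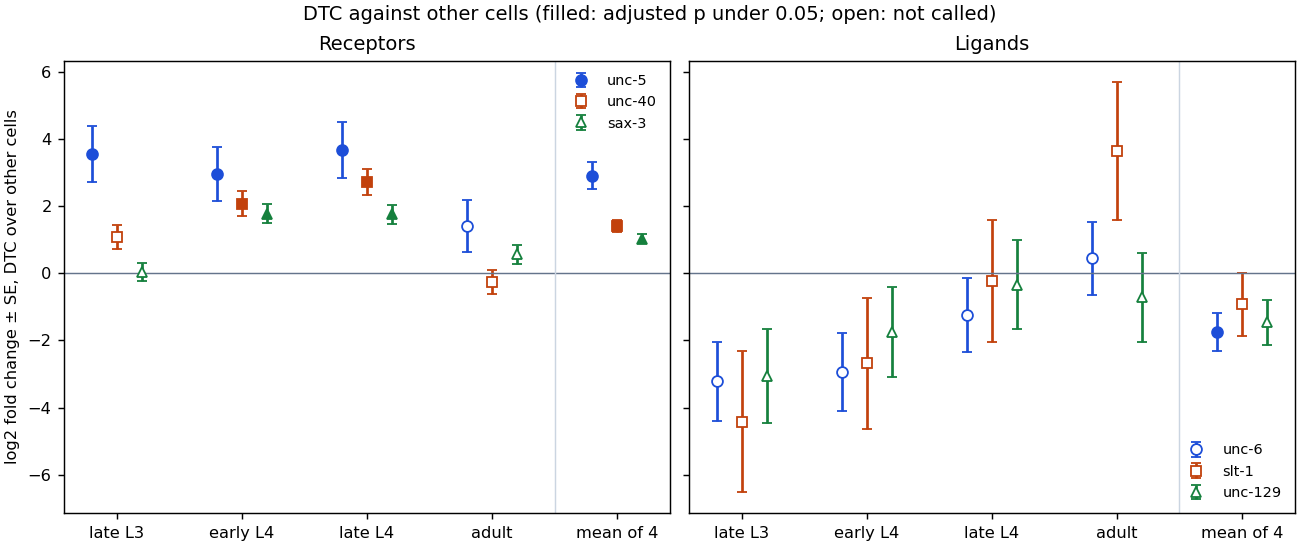
Log2 fold change ± standard error, DTCs over other cells, per stage and averaged over the 4 stages, for the 3 receptors (left) and the 3 ligands (right); filled symbols were called and open symbols were not. The receptors reach 3.67 (unc-5, late L4), and the ligands lie below 0 at late L3 and early L4.

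The netrin receptor gene unc-5 was higher in DTCs at all 3 larval stages, with the highest positive log2 fold change of the 6 genes at each. It had 406, 462.5 and 591 CPM in DTCs at late L3, against 21.2, 40.5 and 63.2 CPM in other cells. At early L4 it had 232, 223 and 322 CPM in DTCs, against 35.8, 30.5 and 33.7 CPM in other cells. Every DTC library at these stages lay far above every library of other cells. At late L4 it had 208, 165 and 328 CPM in DTCs, against 27.5, 8.28 and 19.2 CPM in other cells, and again the groups did not overlap. In adults the levels were 21.8, 53.5 and 32.7 CPM in DTCs and 9.88, 30.8 and 0.310 CPM in other cells, and replicate 2 of other cells lay inside the DTC range. The log2 fold changes of DTCs over other cells were 3.55 ± 0.82 at late L3 (adjusted p = 0.00733), 2.96 ± 0.80 at early L4 (0.019), and 3.67 ± 0.83 at late L4 (0.00479). The adult value, 1.40 ± 0.77, was not called (0.234). The early L4 call was lost when DTC replicate 3 (adjusted p = 0.0576) or any of the 3 libraries of other cells at early L4 was left out (0.0568 without replicate 1, 0.0643 without replicate 2, 0.12 without replicate 3). The adult value was called when replicate 2 of other cells in adults was left out (2.67, adjusted p = 0.0464). The fold change was not shown to differ among the 4 stages (interaction adjusted p = 0.328), but it was called so without other cells in adults replicate 3 (0.0351).

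Within DTCs, unc-5 averaged 486.5 ± 94.6, 259 ± 54.3, 234 ± 84.5 and 36.0 ± 16.1 CPM from late L3 to adult. The late L3 libraries all lay above the early L4 ones, but the step between these stages was not called (-0.91 ± 0.75, adjusted p = 0.561). Early and late L4 overlapped. In adult DTCs unc-5 fell to 15.4% of its late L4 mean (-2.70 ± 0.80, adjusted p = 0.0298), and all 3 adult libraries lay below all 3 late L4 libraries. That call was lost without DTC late L4 replicate 3 (adjusted p = 0.0784), DTC adult replicate 1 (0.0957) or DTC adult replicate 3 (0.0911). Any difference among the 4 stages was called in DTCs (adjusted p = 0.0111), but not without adult replicate 1 (0.0606), adult replicate 3 (0.0556) or both adult groups (0.28). In order of mean level, DTCs at late L3, early L4 and late L4 came first, then other cells at late L3 and adult DTCs, then other cells at early L4, late L4 and in adults. Neighbours in that order overlapped except DTCs at late L3 and early L4, DTCs at late L4 and other cells at late L3, and other cells at early L4 and late L4.

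The gene unc-40, which encodes the DCC family receptor, had its highest DTC mean at late L4, whereas unc-5 had its highest at late L3. Their courses were not compared by a test. In DTCs at late L3 unc-40 had 148, 157 and 167 CPM, against 87.4, 72.7 and 64.1 CPM in other cells. At early L4 it had 227.5, 193 and 197 CPM in DTCs, against 46.7, 54.7 and 45.7 CPM in other cells. The groups did not overlap at either stage. At late L4 it had 314, 218 and 339 CPM in DTCs, against 39.7, 19.4 and 73.9 CPM in other cells, and in adults 51.3, 61.4 and 55.4 CPM in DTCs, against 69.3, 37.7 and 93.6 CPM in other cells. The late L4 groups were far apart, and in adults the DTC range lay inside that of other cells. The log2 fold changes were 1.07 ± 0.36 at late L3 (adjusted p = 0.0516, not called), 2.07 ± 0.37 at early L4 (0.000536), and 2.71 ± 0.38 at late L4 (5.03e-05). The adult value, -0.26 ± 0.35, was not called (0.693). The late L3 value stood at the threshold: it was called without other cells at late L4 replicate 2 (adjusted p = 0.0221) or replicate 3 (0.0248), without both adult groups (0.0443), with a filter of 1 CPM in 6 libraries (0.0436) and in a fit of only the groups compared (0.0386), and the adjusted p reached 0.153 over all alternatives.

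The DTC-to-other-cell fold change of unc-40 differed among the 4 stages by the interaction test (adjusted p = 0.00337, and 0.0482 without both adult groups), a test that called 13.9% of all genes and 2 of the 6. Within DTCs its level differed among stages (adjusted p = 0.00049). The steps to early L4 (0.39 ± 0.35, adjusted p = 0.603) and on to late L4 (0.50 ± 0.35, 0.478) were not called. In adult DTCs it fell to 19.3% of its late L4 mean (-2.37 ± 0.37, adjusted p = 0.000363), and no leave-one-out run ended that call. By mean level the order was DTCs at late L4, early L4 and late L3, then other cells at late L3 and in adults, adult DTCs, and other cells at early and late L4. In that order DTCs at early L4 stood clear of DTCs at late L3, which in turn stood clear of other cells at late L3, and all other neighbours overlapped.

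The RNA of sax-3, which encodes the Robo receptor, was higher in DTCs at the L4 stages. The gene had 36.9, 39.5 and 80.4 CPM in DTCs at late L3, against 50.8, 49.3 and 53.8 CPM in other cells, so that the DTC libraries lay on both sides of the others. At early L4 it had 134, 109 and 101.5 CPM in DTCs, against 34.9, 28.5 and 37.4 CPM in other cells. At late L4 it had 150.5, 112 and 130.4 CPM in DTCs, against 48.2, 36.7 and 31.3 CPM in other cells. At both L4 stages every DTC library was above every library of other cells. In adults the levels were 57.8, 65.4 and 78.7 CPM in DTCs and 41.8, 54.2 and 41.0 CPM in other cells, which did not overlap but stood close. The log2 fold changes were 0.03 ± 0.28 at late L3 (adjusted p = 0.965), 1.77 ± 0.28 at early L4 (0.000176), and 1.76 ± 0.28 at late L4 (0.000215). The adult value, 0.56 ± 0.28, was not called (0.184). The late L3 value turned to -0.27 with RLE scaling, so its sign is not set by these data. The fold change differed among the 4 stages (interaction adjusted p = 0.00789, and 0.0165 without both adult groups).

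Within DTCs, sax-3 was the 1 guidance gene called between late L3 and early L4, where it was higher at early L4 (1.14 ± 0.28, adjusted p = 0.0417, while 1.79% of all genes were called higher and 0.213% lower). All 3 early L4 libraries lay above all 3 late L3 libraries. This call was lost with no filter on low counts (adjusted p = 0.104), in a fit of only the groups compared (0.0898) and in 10 of 24 leave-one-out runs. In 5 of them the library left out was late L3 replicate 1 (adjusted p = 0.231) or 2 (0.17) or early L4 replicate 1 (0.143), 2 (0.0933) or 3 (0.0532) of the DTCs. In the other 5 it was other cells at early L4 replicate 1 (0.0591) or 2 (0.0592), DTCs at late L4 replicate 1 (0.0527) or 2 (0.0542), or other cells at late L4 replicate 2 (0.0551). From early to late L4 none of the 6 was called by edgeR or DESeq2 and 0 had an unadjusted p under 0.05 (5.57% of all genes were called, 3.80% higher). In adult DTCs sax-3 fell to 51.3% of its late L4 mean (-0.96 ± 0.28, adjusted p = 0.0267), a call lost without DTC late L4 replicate 1 (0.0884) and with no filter on low counts (0.131). Its order by mean level was DTCs at late L4 and early L4, adult DTCs, DTCs at late L3, and then other cells at late L3, in adults, at late L4 and at early L4. The 1 break between neighbours lay between DTCs at early L4 and adult DTCs.

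The 3 receptors were the 3 guidance genes called lower in adult than in late L4 DTCs (6.12% of all genes were called lower and 6.68% higher), and the 3 called by edgeR for any difference among the stages of DTCs (37.2% of all genes). In other cells 0 of the 6 were called among the stages by edgeR or by DESeq2, and 0 had an unadjusted p under 0.05 (15% of all genes were called). The DTC marker lag-2 stood at 18.6% of its late L4 mean in adult DTCs. All 7 DTC markers had counts in both groups, with sums of 2234 to 3158 CPM in adult DTCs against 22560 to 26300 CPM in late L4 DTCs. All 7 intestine markers summed to 3047 to 15020 CPM in adult DTCs against 996.7 to 1284 CPM in late L4 DTCs. All 6 pharynx markers summed to 1203 to 5500 CPM against 66.9 to 240.6 CPM, and all 8 body wall muscle markers to 14390 to 15970 CPM against 2213 to 8268 CPM, in the same order of groups. Fewer DTCs in a fraction and less receptor RNA per DTC cannot be told apart in such bulk samples. The 10 neuron markers, which mark cells that also use these receptors, all had counts, with sums of 978.8 to 1330 CPM in DTCs at early L4 against 400.2 to 511.9 CPM in other cells. At late L4 they summed to 987.9 to 1308 CPM in DTCs against 572.4 to 843.6 CPM in other cells. The fractions overlapped at late L3, with 651.7 to 1009 CPM in DTCs and 386.6 to 913.8 CPM in other cells. They also overlapped in adults, with 1241 to 1493 CPM in DTCs and 915.5 to 2055 CPM in other cells. The part of the neuron markers in the receptor differences was not tested.

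**Figure D3:**
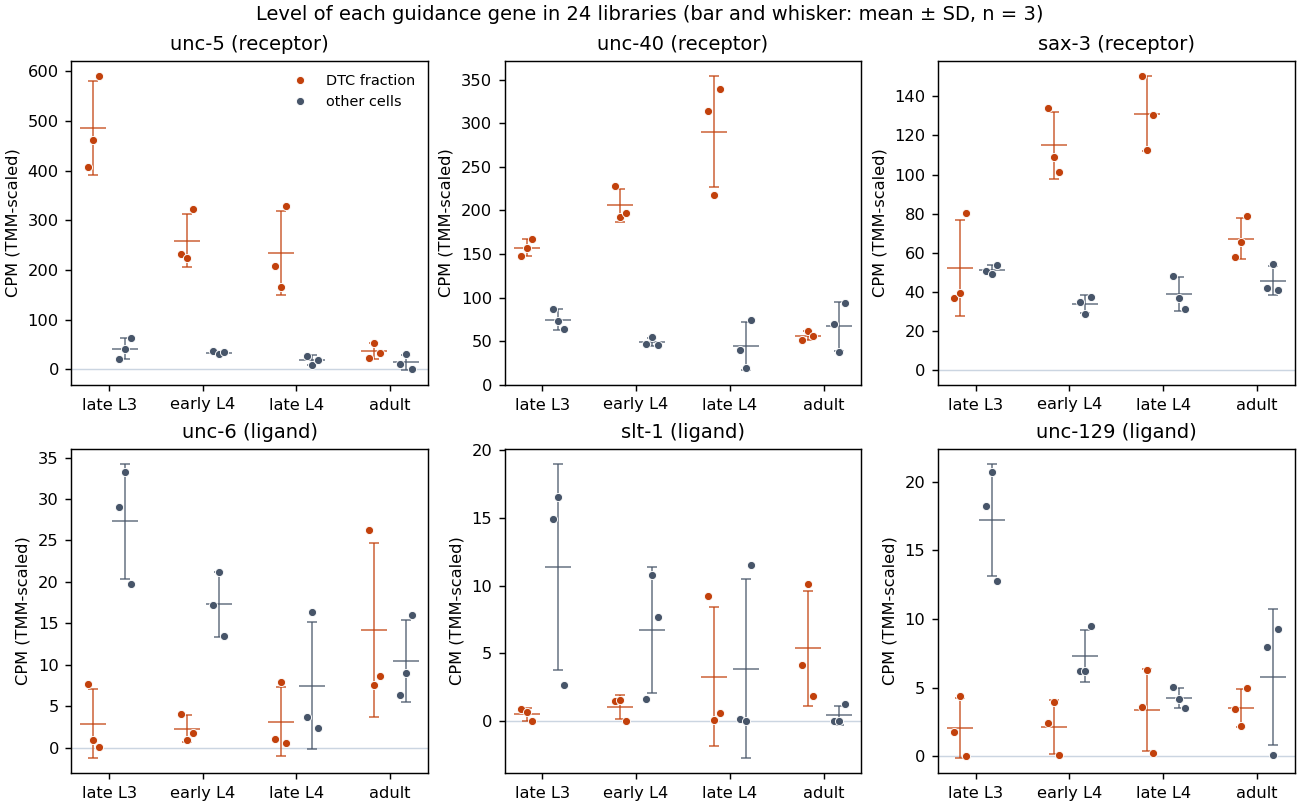
CPM of each guidance gene in every library (points) by stage, DTCs left of other cells, with the mean and SD of 3 libraries; the scales differ between panels. The 3 receptors reach 131 to 487 CPM as their highest DTC mean, and the 3 ligands stay under 34 CPM in every library.

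Divided by exon length, so that genes can be compared, the receptors in DTCs at late L3 stood at 154 CPM per kb for unc-5, 32.5 for unc-40 and 11.6 for sax-3. That level of unc-5 ranked in the top 2.43% of 16823 genes, and its level ranked in the top 5.96% at early L4 and 7.76% at late L4, against 36.4% in adult DTCs. In other cells at late L3 unc-5 ranked in the top 31.2%. The level of unc-40 per kb ranked in the top 15.6%, 12%, 9.53% and 36.0% of genes in DTCs at the 4 stages in turn, and sax-3 in the top 34%, 19.3%, 18.3% and 30.8%. The ratio of unc-5 to unc-40, both in CPM per kb, was 4.21, 4.52 and 5.42 in the DTC libraries at late L3. It was 1.56, 1.77 and 2.50 in DTCs at early L4, 1.02, 1.16 and 1.48 at late L4 and 0.651, 1.33 and 0.903 in adults. The late L3, early L4 and late L4 libraries did not overlap in this ratio, each stage lying below the one before, whereas late L4 and adults overlapped. In other cells the ratio was 0.371, 0.853 and 1.51 at late L3, 1.18, 0.854 and 1.13 at early L4, 1.06, 0.653 and 0.399 at late L4 and 0.218, 1.25 and 0.00507 in adults. The lowest of these, in adult replicate 3, rests on 3 counts of unc-5. The ratio is a description, and no test was run on it.

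**Figure D4:**
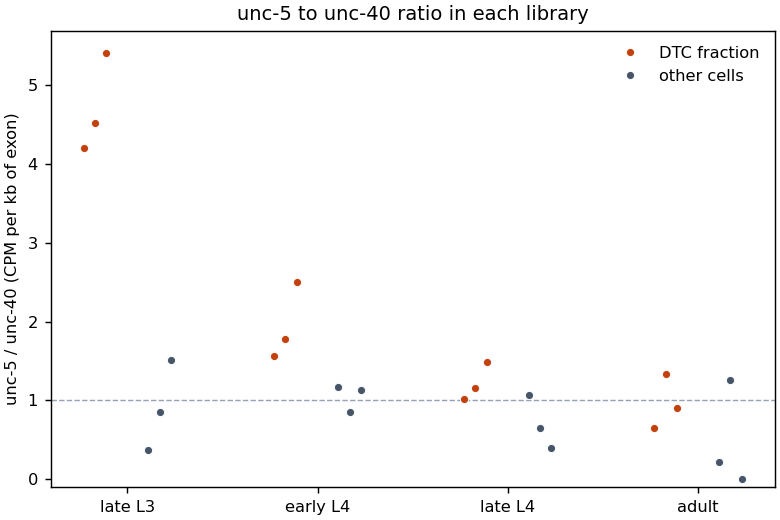
Ratio of unc-5 to unc-40 in each library, both as CPM per kb of exon, by stage, with DTC libraries left of other cells; the dashed line marks equal levels. DTC libraries lie at 4.21 to 5.42 at late L3 and at 1.02 to 1.48 at late L4, and libraries of other cells at 0.00507 to 1.51.

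The netrin ligand gene unc-6 was lower in DTCs in the mean of the 4 stages, and at no single stage by edgeR. It had 7.71, 0.942 and 0.0671 CPM in DTCs at late L3, against 29.0, 33.3 and 19.7 CPM in other cells. At early L4 it had 4.08, 0.956 and 1.72 CPM in DTCs, against 17.2, 21.2 and 13.4 CPM in other cells. The groups did not overlap at these stages. At late L4 the levels were 1.04, 7.88 and 0.513 CPM in DTCs and 3.75, 16.4 and 2.37 CPM in other cells, and in adults 26.2, 7.60 and 8.62 CPM in DTCs and 6.38, 9.05 and 16 CPM in other cells. Both of these pairs of groups overlapped. The mean of the 4 stages was called lower in DTCs (-1.74 ± 0.56, adjusted p = 0.0236), a call lost without other cells at late L4 replicate 2 (-1.39, adjusted p = 0.064). No single stage was called: the log2 fold changes were -3.22 ± 1.18 (adjusted p = 0.0765), -2.94 ± 1.17 (0.127), -1.25 ± 1.11 (0.486) and 0.44 ± 1.09 (0.852) from late L3 to adult. Without DTC replicate 1 the late L3 value was called (-5.73, adjusted p = 0.0145), and with all libraries it was called with no filter (0.0461) and by DESeq2 (0.0047). The early L4 value was called by DESeq2 (0.0182) and in a fit of only the groups compared (0.0122). Any difference among the stages of DTCs was not called by edgeR (adjusted p = 0.121). It was called by DESeq2 (0.0326) and without DTC late L3 replicate 1 (0.0196) or late L4 replicate 2 (0.0355). Without both adult groups the adjusted p was 0.928. Glia are among the cells known to make UNC-6. All 5 glia markers measured had counts at late L3, with sums of 3.75 to 22.3 CPM in DTCs against 137.8 to 211.8 CPM in other cells. At early L4 they summed to 3.44 to 21.5 CPM in DTCs, with delm-1 at 0, against 82.0 to 201.8 CPM in other cells. At late L4, where unc-6 overlapped, they were still apart, at 8.71 to 15.6 CPM against 66.7 to 122.5 CPM, with delm-1 at 0 in both. In adults they summed to 85.0 to 170.1 CPM in DTCs, with delm-1 at 0, against 64.2 to 100.4 CPM in other cells, with ptr-10 and delm-1 at 0. The neuron marker sums given above went the other way, higher in DTCs than in other cells at early L4 and late L4. At early L4 they were 978.8 to 1330 CPM in DTCs against 400.2 to 511.9 CPM in other cells. They overlapped at late L3 and in adults. The part of glia or neuron markers in the unc-6 difference was not tested.

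The Slit gene slt-1 had, per kb of exon, the lowest mean level of the 6 genes in each of the 8 groups. It had 0.879, 0.673 and 0 CPM in DTCs at late L3, against 14.9, 16.6 and 2.65 CPM in other cells. The 0 allows up to 0.201 CPM at 3 counts, a limit that covers counting error only. At early L4 it had 1.52, 1.57 and 0 CPM in DTCs, against 1.67, 10.8 and 7.67 CPM in other cells, with no overlap at either stage. At late L4 the levels were 9.20, 0.0906 and 0.598 CPM in DTCs and 0.150, 0 and 11.5 CPM in other cells, so that 1 library in each fraction held most of the counts. In adults the order was the opposite, with 4.17, 10.1 and 1.83 CPM in DTCs against 0.0613, 0 and 1.24 CPM in other cells and no overlap. None of these was called: the log2 fold changes were -4.43 ± 2.10 (adjusted p = 0.163), -2.69 ± 1.94 (0.398), -0.24 ± 1.82 (0.958) and 3.64 ± 2.06 (0.249) from late L3 to adult. Their difference among stages was not called either (interaction adjusted p = 0.184). DESeq2 called the late L3 value (adjusted p = 0.0367).

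The TGF-beta family ligand gene unc-129 had its highest mean in other cells at late L3, the 1 group that did not overlap its neighbour in the order of levels. It had 1.81, 4.37 and 0 CPM in DTCs at late L3, against 18.2, 20.7 and 12.8 CPM in other cells. At early L4 it had 2.40, 3.99 and 0.0782 CPM in DTCs, against 6.24, 6.18 and 9.46 CPM in other cells. Both stages were without overlap. At late L4 the levels were 3.60, 6.25 and 0.256 CPM in DTCs and 5.03, 4.21 and 3.55 CPM in other cells, and in adults 3.43, 2.19 and 4.95 CPM in DTCs and 7.97, 0.0995 and 9.30 CPM in other cells, which overlapped at both stages. The largest difference, at late L3, was -3.06 ± 1.41 (adjusted p = 0.153, and 0.031 with DESeq2) and the mean of the stages was -1.47 ± 0.67 (adjusted p = 0.105). The mean was called by DESeq2 (adjusted p = 0.0231) and without other cells in adults replicate 2 (0.0297). DTC replicate 3 had the lowest unc-129 of its group at late L3, early L4 and late L4. The same libraries had the lowest summed hypodermis markers of their groups, at 7.44, 45.4 and 222 CPM, against 63.9 to 65.8, 79.9 to 114.5 and 919.1 to 1105 CPM in replicates 1 and 2. They also had the lowest sums of body wall muscle markers, at 2170, 1476 and 2213 CPM, against 3431 to 4054, 2895 to 4072 and 5446 to 8268 CPM in replicates 1 and 2, and the lowest sums of glia markers, at 3.75, 3.44 and 8.71 CPM. Body wall muscle, whose dorsal cells are known to make UNC-129, had all 8 of its markers with counts in every group. They summed to 2170 to 4054 CPM in DTCs at late L3 against 10930 to 13400 CPM in other cells. At early L4 the sums were 1476 to 4072 CPM against 5929 to 8073 CPM, and at late L4 2213 to 8268 CPM against 13400 to 24610 CPM. In adults the order was the opposite, with 14390 to 15970 CPM in DTCs against 9019 to 10370 CPM in other cells. The part of these lists was not tested.

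The ranges of DTCs and other cells were apart in the same direction for all 3 ligands at late L3 and early L4, with DTCs lower (15.9% and 27.9% of all genes were apart in that direction at these stages). DTCs were higher without overlap for 2 genes at late L3, unc-5 and unc-40 (21% of all genes), and for the 3 receptors at early L4 (21.1%) and at late L4 (18.3%). In adults this held for sax-3 and slt-1 (17.3%), and DTCs were lower without overlap for 0 of the 6 (9.24% of all genes). No guidance gene was apart in 1 direction at all 4 stages, which held for 3.04% of all genes with DTCs higher. With the library of other cells at late L3 that stood apart left out, the log2 fold changes at late L3 were 3.98 for unc-5 (adjusted p = 0.0148), 0.98 for unc-40, 0.07 for sax-3, -3.43 for unc-6, -4.91 for slt-1 and -3.25 for unc-129. Again unc-5 alone of the 6 was called there. Without both adult groups the mean of the remaining stages was called for the same 4 genes, at 3.36 for unc-5, 1.95 for unc-40, 1.16 for sax-3 and -2.51 for unc-6.

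Other genes of netrin and Slit signalling were read from a list of 50, of which 47 were tested. That list was chosen with earlier results of these data known, so its counts are a description. In the mean of the 4 stages 21 of the 47 were called higher in DTCs and 4 lower (median log2 fold change 0.71, against -0.14 over all genes). Over all genes 16.3% were called higher and 14.3% lower in that mean. The counts were 11 higher and 2 lower at late L3 (6.03% and 7.33% of all genes), 17 and 0 at early L4 (9.40% and 1.65%), 19 and 2 at late L4 (9.19% and 2.61%), and 6 and 1 in adults (8.19% and 5.12%). In DTCs 2 of the 47 were called higher and 13 lower in adults than at late L4 (6.68% and 6.12% of all genes). The sums of DTC, intestine, pharynx and body wall muscle markers given above for these libraries moved with that comparison, and their part in it was not tested. Of 9 ligand partners and co-receptors, 4 were higher and 2 lower in the mean of the stages, the comparison in which 30.6% of all genes were called. The basement membrane protein gene nid-1 (nidogen, 6.54 ± 0.35), the syndecan sdn-1 (2.53 ± 0.13) and the receptor phosphatase clr-1 (2.27 ± 0.16), which in C. elegans restrains netrin attraction, were higher. Each of these fold changes differed among stages by the interaction test, which called 13.9% of all genes (adjusted p = 0.0349, 0.000122 and 0.00637 in turn). In adults nid-1 and sdn-1 were called higher and clr-1 was not called (0.79 ± 0.31, adjusted p = 0.099). The SAX-3 co-receptor gene eva-1 was lower (-1.74 ± 0.64, adjusted p = 0.044), a call lost in 11 of 24 leave-one-out runs. They left out DTCs at late L3 replicate 1 or 3, early L4 replicate 1 or 2 or late L4 replicate 2, or other cells at late L3 replicate 1 or 3, early L4 replicate 1 or 2 or late L4 replicate 1 or 2, and gave adjusted p from 0.0507 to 0.0926.

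Of 18 genes listed as receptor effectors, 10 were higher and 1 lower (median 0.86), against 16.3% and 14.3% of all genes. The list does not separate genes that act with a receptor from genes that act against it. The ubiquitin ligase rpm-1 (3.59 ± 0.42), the cytoskeletal regulator unc-53 (3.03 ± 0.23), the kinase pak-1 (2.25 ± 0.22) and the CRMP protein unc-33 (1.88 ± 0.48) had the largest differences. Of 13 genes of the Rac GTPase module, which couples the receptors to actin, 5 were higher and 0 lower (median 0.63), against 16.3% and 14.3% of all genes. They included the GTPase mig-2 (1.41 ± 0.20), the ELMO protein ced-12 (1.17 ± 0.14), the Trio exchange factor unc-73 (1.01 ± 0.12) and the WAVE complex gene gex-2 (0.71 ± 0.14). The fold change differed among stages by the interaction test for pak-1 (adjusted p = 0.00352), unc-53 (0.0187), unc-73 (0.0134) and mig-2 (0.0302). Of the effectors and Rac genes named here, ced-12 alone was called in adults (0.91 ± 0.27, adjusted p = 0.0301). There mig-2 was at -0.035 ± 0.40 and pak-1 at 0.38 ± 0.42. At late L3 unc-33 (1.44 ± 0.95), unc-73 (0.19 ± 0.24) and gex-2 (0.43 ± 0.28) were not called. Between adult and late L4 DTCs, unc-73 fell (log2 fold change -1.03 ± 0.25, adjusted p = 0.00899), as did mig-2 (-1.74 ± 0.41, 0.00787), while ced-12 was at 0.17 ± 0.27 (0.706). DTC markers summed to 2234 to 3158 CPM in these adult DTCs against 22560 to 26300 CPM in late L4 DTCs, and their part in these falls was not tested.

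The timing of unc-5 in DTCs is known to depend on the nuclear receptor DAF-12, the zinc finger protein LIN-29 and the F-box protein DRE-1, and to be held back by BLMP-1. Of 7 regulators of unc-5 or unc-129 tested, 2 were higher (daf-12 and dre-1) and 1 lower (hbl-1) in the mean of the stages, in which 30.6% of all genes were called. The gene lin-29 had 223.5, 225 and 137 CPM in DTCs at late L3, against 59.6, 48.0 and 17.3 CPM in other cells. It averaged 195 ± 50.5, 39.9 ± 5.37, 18 ± 3.29 and 9.32 ± 8.12 CPM in DTCs from late L3 to adult, which differed (adjusted p = 0.000422, and 9.28e-05 without both adult groups). All 3 late L3 libraries lay above all other libraries. Its fold change over other cells was not called at late L3 (2.23 ± 0.74, adjusted p = 0.0527) or in the mean (0.95 ± 0.36, 0.0541). The mean was called with no filter on low counts (0.94, 0.0289), without both adult groups (1.19, 0.00046), without other cells at late L3 replicate 1 (1.03, 0.0466) and without other cells in adults replicate 3 (1.29, 0.000676).

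The receptor gene daf-12 averaged 132.5 ± 96.7, 111.5 ± 31, 117 ± 8.19 and 54.6 ± 6.70 CPM in DTCs, against 22.5 ± 5.31, 12.2 ± 1.64, 14.5 ± 3.46 and 22.8 ± 16.7 CPM in other cells. It was higher in DTCs in the mean (2.51 ± 0.25, adjusted p = 2e-07), and no difference among DTC stages was called (0.143, and 0.0295 without other cells in adults replicate 2). The gene dre-1 averaged 99.3 ± 26.2, 150.4 ± 7.04, 147 ± 9.12 and 37.4 ± 8.12 CPM in DTCs, against 97.9 ± 7.41, 74.6 ± 24.4, 31.5 ± 7.23 and 22.7 ± 16 CPM in other cells. Its log2 fold change was 0.02 ± 0.42 at late L3 (not called), and it was higher in DTCs at late L4 (2.22 ± 0.44, adjusted p = 0.00146). The gene blmp-1 was low throughout, at 8.06 ± 0.410, 2.87 ± 0.612, 0.957 ± 1.18 and 1.97 ± 2.25 CPM in DTCs from late L3 to adult. Neither its mean difference from other cells (0.40 ± 0.60, adjusted p = 0.694, and -0.14 without both adult groups) nor its change among DTC stages (0.175) was called. The transcription factor gene hbl-1 was lower in the mean (-2.29 ± 0.80, adjusted p = 0.0366), a call lost without both adult groups (0.0512) and in 8 of 24 leave-one-out runs. They left out DTCs at late L3 replicate 1 or 3, early L4 replicate 3 or late L4 replicate 1, or other cells at late L3 replicate 1, early L4 replicate 1 or 2 or late L4 replicate 3, and the value was -1.11 (adjusted p = 0.395) in the last of these runs.

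**Figure D5:**
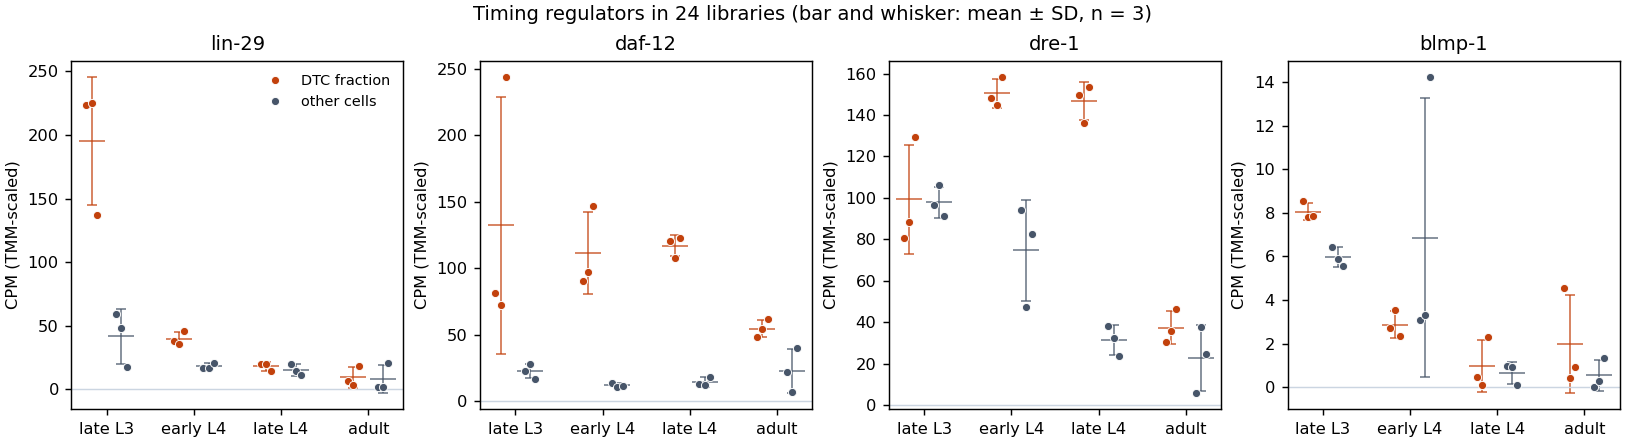
CPM of lin-29, daf-12, dre-1 and blmp-1 in every library (points) by stage, DTCs left of other cells, with the mean and SD of 3 libraries; the scales differ between panels. DTC libraries at late L3 hold 137 to 225 CPM of lin-29, above every other library.

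Across the 24 libraries, unc-5 and unc-40 had a Pearson correlation of log2 CPM of 0.66, unc-40 and sax-3 of 0.72, and unc-5 and sax-3 of 0.54. Within the 12 DTC libraries these were 0.80, 0.56 and 0.07. Libraries of 1 group share fraction and stage, so these are descriptions. The genes most like unc-5 in pattern over the 24 libraries, among 10261 genes with a mean of at least 5 CPM, were F43B10.1 (0.92), Y73F8A.26 (0.92) and pap-1 (0.92). Those most like unc-40 were pqn-65 (0.93), dhhc-9 (0.93) and the metalloprotease zmp-1 (0.92). Most like sax-3 were unc-115 (0.93), an actin-binding effector on the list above, mrp-1 (0.93) and svh-2 (0.92). The ligand unc-6 was most like T02B11.3 (0.86), W04E12.7 (0.84) and clc-6 (0.84), and unc-129 most like C16D9.1 (0.91), F59C6.8 (0.89) and F08F3.10 (0.89). For slt-1 the highest values were lower, 0.69 for bre-1, 0.69 for zig-6 and 0.68 for trp-1.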

How the data were processed

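The submitters' processing notes name FastQC, cutadapt, Bowtie2, HTSeq and the ce11 build. What each tool did, its version and the strand setting were not given in the sources used here. Values deposited by the authors are whole raw read counts for 46778 gene IDs in 24 columns, all mapped to samples by name. Per the labels' protocols, libraries were made from cDNA with a Nextera XT kit. From these counts, filterByExpr in edgeR 4.0.16 (R 4.3.3) kept 16887 genes over the 8 groups. TMM scaling gave the CPM printed, and 1 quasi-likelihood model of 24 libraries gave all tests, with Benjamini-Hochberg adjustment per comparison. The scaled values are shares of a library. Alternatives were RLE scaling, DESeq2 1.42.0, other filters, the replicate block, fits of only the groups compared, each library left out and, chosen after seeing the data, both adult groups left out. Member genes and lists were chosen with earlier results of these data known. Named beside the 6 genes are up to 4 genes per role list with the largest change among those called in the mean of the stages, 4 timing regulators of unc-5, lag-2, hlh-12, and the 3 genes most correlated with each member (log2 CPM, prior count 2). Listed genes enu-3, let-7 and mir-228 matched no symbol in the table used. Intervals and limits from counts cover counting error only.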

Additional observations from a re-analysis of the deposited data

Results flagged for a closer look

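The fold change of unc-40, DTCs over other cells, differed among the 4 stages by the interaction test of edgeR (adjusted p = 0.00337, and 0.0482 without both adult groups). It was 1.07 ± 0.36 at late L3 and 2.07 ± 0.37 at early L4 (log2 ± standard error). It then stood at 2.71 ± 0.38 at late L4, and adults had the opposite sign, at -0.26 ± 0.35, which was not called. The 7 DTC markers summed to 2234 to 3158 CPM in adult DTC libraries, against 22560 to 26300 CPM at late L4. Intestine, pharynx, body wall muscle, hypodermis and glia markers summed higher in adult than in late L4 DTC libraries. The part of these markers in the adult values of unc-40 and of sax-3 below was not tested.

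The fold change of sax-3 differed among the 4 stages by the same test (adjusted p = 0.00789, and 0.0165 without both adult groups). It was 0.03 ± 0.28 at late L3 and 1.77 ± 0.28 at early L4, then 1.76 ± 0.28 at late L4, with 0.56 ± 0.28 for adults. All 3 DTC libraries lay above all 3 libraries of other cells at all stages but late L3, where the groups overlapped. In each leave-one-out run both differences stayed called, with adjusted p up to 0.0146 for unc-40 and 0.0212 for sax-3.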

How the results depend on the processing

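Of the 6 guidance genes 1 was called at late L3, against 2 with no filter, with a filter of 1 CPM in 6 libraries, in a fit of only the groups compared and without both adult groups, and 4 with DESeq2. Between early L4 and late L3 in DTCs 1 was called, against 0 with no filter, with the replicate block and in a fit of only the groups compared. Leaving out 1 library gave 1 to 2 called at late L3 and 2 to 3 at early L4, with 3 at late L4, 0 to 1 in adults and 3 to 5 in the mean of the stages, 0 to 1 between early L4 and late L3, 0 between late and early L4, 2 to 3 between adults and late L4, 2 to 4 among stages of DTCs, 0 among stages of other cells and 2 to 3 in the interaction. The replicate numbers did not pair the samples (84 same-number pairs, median correlation of deviations -0.01, 9 of 24 libraries closest to their own number). Besides sax-3 between early L4 and late L3 (adjusted p = 0.0551), the block ended the calls of hbl-1 (0.0545) and eva-1 (0.0943) in the mean of the stages and changed no other call of the genes named. Signs reversed for sax-3 at late L3 (-0.27 with RLE and with DESeq2, -0.14 in a fit of only the groups compared, -0.10 without both adult groups), for unc-5 between late and early L4 (0.011 with RLE and with DESeq2), for unc-129 between adults and late L4 (-0.025 in a fit of only the groups compared) and for blmp-1 in the mean (-0.14 without both adult groups). None of these was called. Leaving out 1 library gave -0.42 to 0.26 for sax-3 at late L3, -3.25 to 0.026 for unc-6 and -3.46 to 5.29 for slt-1 at late L4, -0.50 to 0.74 for unc-6 in adults, and -1.73 to 0.48 for slt-1 and -0.24 to 0.68 for blmp-1 in the mean. It gave -1.12 to 2.18 for unc-6 and -0.73 to 1.29 for unc-129 between early L4 and late L3, and -1.49 to 1.23 for unc-6, -1.56 to 2.22 for slt-1, -0.17 to 1.44 for unc-129 and -0.47 to 0.13 for unc-5 between late and early L4. It gave -0.30 to 3.92 for slt-1 and -0.66 to 0.86 for unc-129 between adults and late L4. The causes were not tested. Over all genes DESeq2 called 3999 at late L3 and 2960 at early L4, then 3330 at late L4 and 3980 for adults, against 2256, 1866, 1992 and 2248 with edgeR. Between stages of DTCs it called 1711, 2052 and 3854, against 338, 940 and 2162, among stages of other cells 4595 against 2539, and in the interaction 4563 against 2354. A fit of only the groups compared called 1061 at late L3, 4129 at early L4, 395 in adults, 722 and 1431 between the DTC larval stages and 1342 among stages of other cells. Between early L4 and late L3 in DTCs the block called 213, no filter 885 and leaving out both adult groups 721, and without adults 3040, 992 and 816 were called among stages of DTCs (6285 with adults), among stages of other cells and in the interaction. Leaving out 1 library gave 19 to 836 called between early L4 and late L3. It also moved the count to 1494 at late L3 (without DTC replicate 1) or 1224 (DTC replicate 3), to 1105 at early L4 (other cells replicate 3), to 1157 at late L4 (DTC replicate 3) and to 1180 or 1236 in adults (DTC replicates 1 and 3). Between late and early L4 in DTCs it gave 509 and 481 (without early L4 replicates 1 and 3) and 570 and 602 (late L4 replicates 1 and 2), and between adults and late L4 1280 (late L4 replicate 3) and 1354 (adult replicate 3). Among stages of other cells it gave 3963 (late L3 replicate 3) and 1672 (adult replicate 2), and in the interaction 1508 (adult DTC replicate 3). With RLE the share of calls that were higher was 29.6% at late L3 (45.2% with TMM), 73.5% at early L4 (85.0%) and 66.7% at late L4 (77.9%). All groups share 1 estimate of the spread, and libraries deviated from their group mean by 0.645 to 0.675 (early L4, other cells) and by 1.203 to 1.34 (adults, other cells, root mean square, log2). The largest deviation of a library was 1.429, in other cells at late L3 replicate 3. In adult DTC replicate 3, 3 counts are 0.551 CPM, the highest such level of the 24 libraries.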
